A study of Mus musculus with 24 samples.

Results

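Il7r, Pdgfb, Igf2bp2, Tusc1 and Mtus2 are 5 of the 22165 genes counted here in WT and Irg1-/- bone marrow-derived macrophages (BMDMs). They were chosen because their counts differed between the genotypes under LPS, also with the library pool allowed for, so the genotype differences under LPS are given here as a description, without a test. Irg1, annotated as Acod1, encodes the enzyme that makes itaconate from cis-aconitate. BMDMs of both genotypes were grown for 7 days in M-CSF at 20 ng/mL from the marrow of 8- to 20-week-old C57BL/6N mice. They were left unstimulated (Unstim.) or given LPS at 100 ng/ml for 24 h (LPS 24h). Others were rested after LPS for 24 h and given LPS again for 3 h (LPS 24h->LPS 3h). In the LPS 3h group, labelled Mock/3h_LPS, LPS for 3 h at the same dose followed a mock first phase. The labels name no mock phase for the Unstim. and LPS 24h cultures, so LPS 3h differs from them in this too. Each of the 8 groups of genotype and treatment had 3 libraries. The WT mice were bought in rather than bred as littermates, and the labels do not say whether the 3 cultures of a group came from separate animals, so p-values measure the spread between cultures, which may be technical.

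The 24 libraries held between 3927378 and 20430359 counts in genes, and 3 counts corresponded to between 0.127 and 0.565 CPM (normalized counts per 1000000 counts) in a library, a limit that covers counting error only. Acod1 stood between 5.82 and 11.9 CPM in the 6 unstimulated libraries, at 3794 CPM or more in each WT library under LPS and at 26.4 CPM or less in each Irg1-/- library under LPS. The summed level of 8 macrophage markers was between 3319 and 9833 CPM in the 24 libraries, whereas 7 T cell and innate lymphoid markers summed to between 0.461 and 10.2 CPM. In the same libraries 6 neutrophil markers summed to between 64.2 and 625 CPM and 5 stromal and endothelial markers to between 96.7 and 411 CPM. The neutrophil sum was between 353 and 625 CPM unstimulated and between 70.5 and 224 CPM after LPS 24h. The part of other cells in the levels was not tested. The prefix of a library's name, 1 to 4, was read as its library pool, although the sources used here say only that barcoded samples were pooled and not that this prefix names the pool. All unstimulated libraries came from library pool 4, and the WT LPS libraries from pools 1, 2 and 4. The Irg1-/- LPS 24h libraries all came from pool 1, the LPS 24h->LPS 3h libraries from pools 1 and 2 and the LPS 3h libraries from pools 2 and 3, so pool and group overlap only in part. The WT library of LPS 24h replicate 3, from pool 4, correlated less with the other 2 of its group (Pearson r of log2 CPM over genes 0.914 and 0.933) than those did with each other (0.959) and had the lowest macrophage marker sum of all libraries, at 3319 CPM. Results that rest on it are given with and without it.

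The alpha chain of the IL-7 receptor (CD127), encoded by Il7r, pairs with the common gamma chain to bind IL-7 and with CRLF2 to bind TSLP, and signals through JAK kinases and STAT5. PDGF-B, encoded by Pdgfb, is a secreted growth factor for cells of mesenchymal origin and is made by platelets, endothelium and activated macrophages. IGF2BP2 is an RNA-binding protein that reads N6-methyladenosine (m6A) and stabilises its target mRNAs, Tusc1 is named as a tumour suppressor candidate, and MTUS2 is a microtubule-associated protein.

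On GRCm38 (GENCODE M21) Il7r (ENSMUSG00000003882.4) lies at chr15:9505788-9530176 on the minus strand and Pdgfb (ENSMUSG00000000489.6) at chr15:79995874-80014977 on the minus strand. Igf2bp2 (ENSMUSG00000033581.16) lies at chr16:22059009-22163299, minus, Tusc1 (ENSMUSG00000054000.5) at chr4:93334138-93335511, minus, and Mtus2 (ENSMUSG00000029651.16) at chr5:147957320-148316065, plus. Pdgfb overlaps the microRNA gene Mir7213 and the antisense gene Gm41361, and Mtus2 overlaps Gm10167 and Gm43553. Whether counting used strand is not given in the sources used here, so reads of these pairs cannot be told apart. RefSeq windows of 250 bases before a transcript start (GRCm38.p6) were found for 4 of the 5 genes, and 3 are shown, 5′ to 3′ on the gene's strand, since Il7r, Igf2bp2 and Tusc1 were lower in the same Irg1-/- libraries while their promoters differ in composition. The windows are chr15:9529877-9530126 for Il7r, chr16:22163300-22163549 for Igf2bp2 and chr4:93335512-93335761 for Tusc1. Capitals mark the only match to any of 7 motifs searched on both strands.
Il7r: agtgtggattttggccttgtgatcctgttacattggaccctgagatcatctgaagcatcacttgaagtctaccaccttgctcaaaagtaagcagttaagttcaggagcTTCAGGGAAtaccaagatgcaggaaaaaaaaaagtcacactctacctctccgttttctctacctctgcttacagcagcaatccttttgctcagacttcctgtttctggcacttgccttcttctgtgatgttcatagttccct
Igf2bp2: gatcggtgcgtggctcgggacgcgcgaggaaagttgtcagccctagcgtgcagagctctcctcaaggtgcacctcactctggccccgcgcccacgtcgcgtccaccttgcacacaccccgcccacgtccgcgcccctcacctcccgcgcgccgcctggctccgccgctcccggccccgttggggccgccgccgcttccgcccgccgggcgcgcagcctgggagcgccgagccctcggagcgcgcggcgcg
Tusc1: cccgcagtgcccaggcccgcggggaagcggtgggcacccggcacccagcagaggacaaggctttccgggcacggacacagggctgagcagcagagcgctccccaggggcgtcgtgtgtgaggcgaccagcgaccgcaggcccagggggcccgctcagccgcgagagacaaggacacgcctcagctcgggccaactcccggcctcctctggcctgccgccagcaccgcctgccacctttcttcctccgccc

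The Il7r window had a GC content of 44.0% and 1 CpG, against 77.2% and 40 CpGs in Igf2bp2 and 73.2% and 22 CpGs in Tusc1. The medians over all 32851 RefSeq windows were 52.4% and 6 CpGs. The motif in capitals, TTCAGGGAA, fits the STAT pattern TTCNNNGAA and lies 134 to 142 bases before the RefSeq start of Il7r. That start is 300 bases inside the gene as GENCODE M21 annotates it, so the Il7r window lies within the annotated gene, whereas the GENCODE and RefSeq starts of Igf2bp2 and Tusc1 are the same base. Of all windows, 7.02% hold the STAT pattern. The other patterns were GGANTTCC (NF-kappaB like, in 4.00% of windows), TGANTCA (AP-1, 6.75%), TGACNNNGC (antioxidant response element core, 10.2%), GAAANNGAA (interferon-stimulated response element, 7.13%), TGACGTCA (cAMP response element, 1.55%) and CACGTG (E-box, 6.02%), and none of these is in the 3 windows. Mtus2 has 2 annotated starts. Its upstream window, chr5:147957070-147957319, held no match to the 7 patterns, and the window of its internal start, chr5:148264967-148265216, held 1 STAT match, TTCCCGGAA, 152 to 160 bases before the start. A match describes letters in a window and says nothing of binding.

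Il7r transcript was lower in Irg1-/- BMDMs than in WT BMDMs in every treatment. In unstimulated WT cells the 3 libraries held 543, 582 and 549.8 CPM of Il7r, and in unstimulated Irg1-/- cells 369.7, 409 and 491 CPM. After LPS 3h Il7r stood at 234, 291 and 268 CPM in WT and at 89.3, 127 and 168 CPM in Irg1-/- cells. After LPS 24h it stood at 285, 229 and 256 CPM in WT and at 121, 52.9 and 95.9 CPM in Irg1-/- cells. No Irg1-/- library reached the lowest WT library of its treatment. After LPS 24h->LPS 3h Il7r was at 525, 708 and 579 CPM in WT cells, a range that overlaps that of unstimulated WT cells, and stood at 143, 158 and 229 CPM in Irg1-/- cells.

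The log2 difference in Il7r, Irg1-/- minus WT, was -1.05 ± 0.29 (SE) after LPS 3h, -1.51 ± 0.30 after LPS 24h and -1.77 ± 0.30 upon restimulation (LPS 24h->LPS 3h). With pool as a term in the model these were -1.56 ± 0.45, -1.53 ± 0.31 and -1.79 ± 0.30. Between libraries of the same pool the differences were -1.70 (pool 2, LPS 3h), -1.74 (pool 1, LPS 24h), and -1.46 in pool 1 and -2.30 in pool 2 (LPS 24h->LPS 3h). Each of these rests on 1 WT library. It was set against 1 Irg1-/- library in pool 2, and in pool 1 against 3 (LPS 24h) or 2 (LPS 24h->LPS 3h). The pool 1 values of the other genes at LPS 24h rest on the same libraries. The T cell and innate lymphoid markers were not lower in the Irg1-/- libraries in the unstimulated state, where their sum was between 5.92 and 10.2 CPM against 0.955 to 5.02 CPM in WT. Under LPS that sum was at most 5.98 CPM in WT and 3.87 CPM in Irg1-/- libraries. In bulk RNA a lower level can mean fewer cells with the transcript or less transcript per cell, which cannot be told apart.

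**Figure D1:**
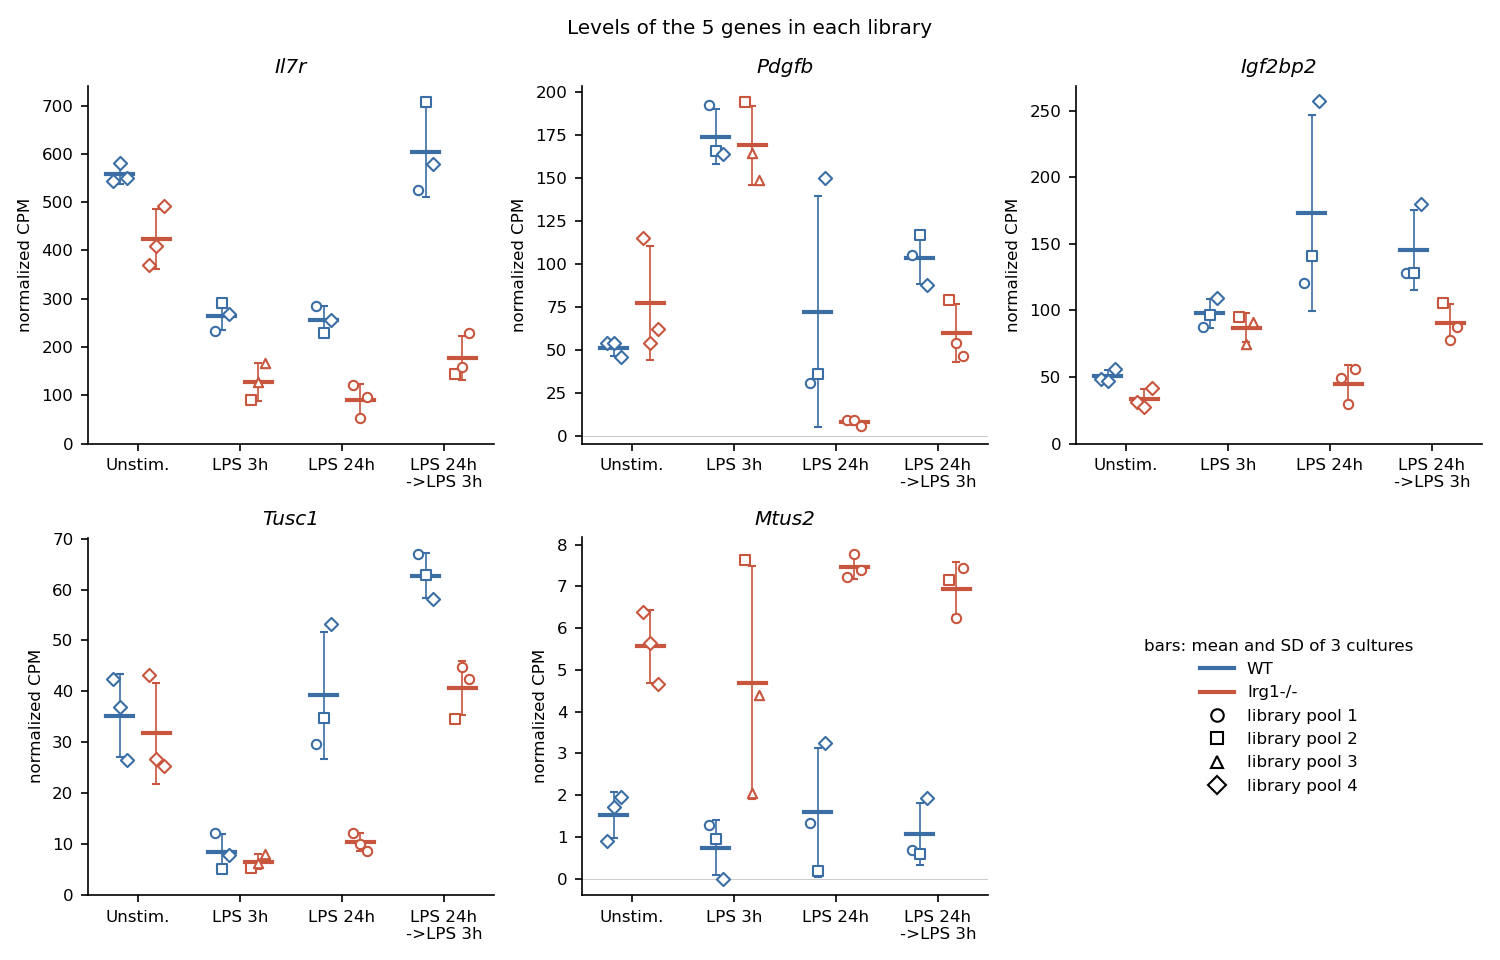
Normalized CPM (vertical axes, linear) of Il7r, Pdgfb, Igf2bp2, Tusc1 and Mtus2 in each of the 24 libraries, by treatment and genotype; each symbol is 1 library, shaped by library pool, and bars give the mean and SD of 3. Il7r in Irg1-/- cells stays between 143 and 229 CPM after LPS 24h->LPS 3h, below the 525 CPM of the lowest WT library, and Pdgfb in the 3 Irg1-/- LPS 24h libraries lies between 6.12 and 9.25 CPM.

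For Pdgfb the genotypes were set apart late in the response. Unstimulated WT libraries held 54.4, 53.9 and 46.1 CPM of Pdgfb and unstimulated Irg1-/- libraries 115, 54.3 and 62.2 CPM. After LPS 3h the levels were 192, 166 and 164 CPM in WT and 194, 164 and 149 CPM in Irg1-/- cells. The groups overlapped in both states. After LPS 24h, by contrast, Pdgfb was at 31.0, 36.1 and 149.8 CPM in WT and at 9.13, 9.25 and 6.12 CPM in Irg1-/- cells, with no overlap. After restimulation it stood at 105, 117 and 87.7 CPM in WT and at 79.2, 54.0 and 46.6 CPM in Irg1-/- cells, again without overlap.

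The log2 difference in Pdgfb was -0.04 ± 0.39 after LPS 3h and -3.15 ± 0.43 after LPS 24h, and it was -0.79 ± 0.39 upon restimulation. The WT library of LPS 24h replicate 3 carries part of the LPS 24h value, which was -2.02 without it, -2.61 ± 0.46 with pool as a term and -1.93 between the libraries of pool 1. Platelet and megakaryocyte markers were read as the sum of Pf4, Itga2b, Gp9 and Ppbp. Pf4 ran from 115 to 638 CPM over all libraries, while Itga2b, Gp9 and Ppbp stayed at 2.38, 0.764 and 5.16 CPM or less. The sum is thus nearly that of Pf4 alone and follows 1 gene, not a set of platelet markers. It was 642, 299 and 183 CPM in the 3 WT LPS 24h libraries and 231, 351 and 187 CPM in the Irg1-/- ones. The WT library with the most Pdgfb had the lowest sum of the 6. After LPS 24h->LPS 3h, by contrast, the sum moved with Pdgfb, at 626, 639 and 289 CPM in WT and 353, 258 and 260 CPM in Irg1-/- libraries, with the same order of the libraries as Pdgfb within WT. In the unstimulated state it was between 117 and 154 CPM in WT and between 372 and 499 CPM in Irg1-/- libraries, and after LPS 3h between 260 and 398 CPM in WT and between 334 and 497 CPM in Irg1-/- libraries. The part of these markers in the Pdgfb levels was not tested.

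Igf2bp2 was lower in Irg1-/- than in WT libraries except after LPS 3h, the only treatment in which the groups overlapped. Unstimulated libraries held 48.7, 47.1 and 56.3 CPM of Igf2bp2 in WT and 31.3, 27.1 and 42.1 CPM in Irg1-/- cells. After LPS 3h the levels were 87.3, 96.8 and 109 CPM in WT and 94.8, 74.8 and 91.6 CPM in Irg1-/- cells. In WT cells Igf2bp2 stood at 121, 141 and 257 CPM after LPS 24h, while the Irg1-/- libraries of that treatment held 49.4, 29.5 and 56.2 CPM, a range that overlaps that of both unstimulated groups. After LPS 24h->LPS 3h the WT libraries held 128, 128 and 179.8 CPM and the Irg1-/- libraries 106, 78.1 and 87.9 CPM. The log2 difference was -0.17 ± 0.30 after LPS 3h, -1.94 ± 0.31 after LPS 24h (-1.50 without the WT library of replicate 3, -1.58 ± 0.30 with pool as a term, -1.47 within pool 1) and -0.68 ± 0.30 upon restimulation.

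Tusc1 differed between the genotypes at the same times as Pdgfb. Unstimulated libraries held 42.5, 36.9 and 26.5 CPM of Tusc1 in WT and 43.2, 26.8 and 25.3 CPM in Irg1-/- cells, and after LPS 3h both genotypes were low, at 12.2, 5.10 and 7.95 CPM in WT and 5.25, 6.35 and 8.09 CPM in Irg1-/- cells. The groups overlapped in both states. After LPS 24h the WT libraries were at 29.6, 34.9 and 53.3 CPM, within or above the unstimulated range, and the Irg1-/- libraries at 12.2, 10.1 and 8.71 CPM. After LPS 24h->LPS 3h Tusc1 reached 67.0, 63.0 and 58.1 CPM in WT and 34.6, 44.8 and 42.5 CPM in Irg1-/- cells. The log2 difference was -0.35 ± 0.35 after LPS 3h, where it was 0.01 without the WT library of replicate 1. After LPS 24h it was -1.92 ± 0.33 (-1.61 without the WT library of replicate 3, -1.51 within pool 1). Upon restimulation it was -0.62 ± 0.32. With pool as a term these differences were -0.40 ± 0.51, -2.03 ± 0.36 and -0.64 ± 0.32.

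Mtus2 was the only one of the 5 genes with more transcript in Irg1-/- than in WT libraries in every treatment, and it rested on few counts. The WT libraries held 0.902, 1.72 and 1.95 CPM of Mtus2 unstimulated, 1.28, 0.948 and 0 CPM after LPS 3h, 1.34, 0.179 and 3.25 CPM after LPS 24h, and 0.692, 0.585 and 1.94 CPM upon restimulation. These are between 0 and 40 counts a library, and the count of 0 in WT LPS 3h replicate 3 allows up to 0.397 CPM. The Irg1-/- libraries held 6.39, 5.65 and 4.66 CPM unstimulated, 7.62, 2.06 and 4.40 CPM after LPS 3h, 7.23, 7.78 and 7.39 CPM after LPS 24h, and 7.16, 6.24 and 7.44 CPM upon restimulation, from 13 to 174 counts. The groups did not overlap in any treatment. The log2 difference was 2.70 ± 0.80 after LPS 3h, 2.23 ± 0.73 after LPS 24h and 2.66 ± 0.75 upon restimulation. With pool as a term it was 3.76 ± 0.99, 2.61 ± 0.83 and 3.10 ± 0.80. Without single libraries it ranged from 2.11 to 3.26 after LPS 3h and from 2.37 to 3.46 upon restimulation. After LPS 24h it ranged from 1.67 (without the WT library of replicate 2) to 3.39 (without that of replicate 3).

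**Figure D2:**
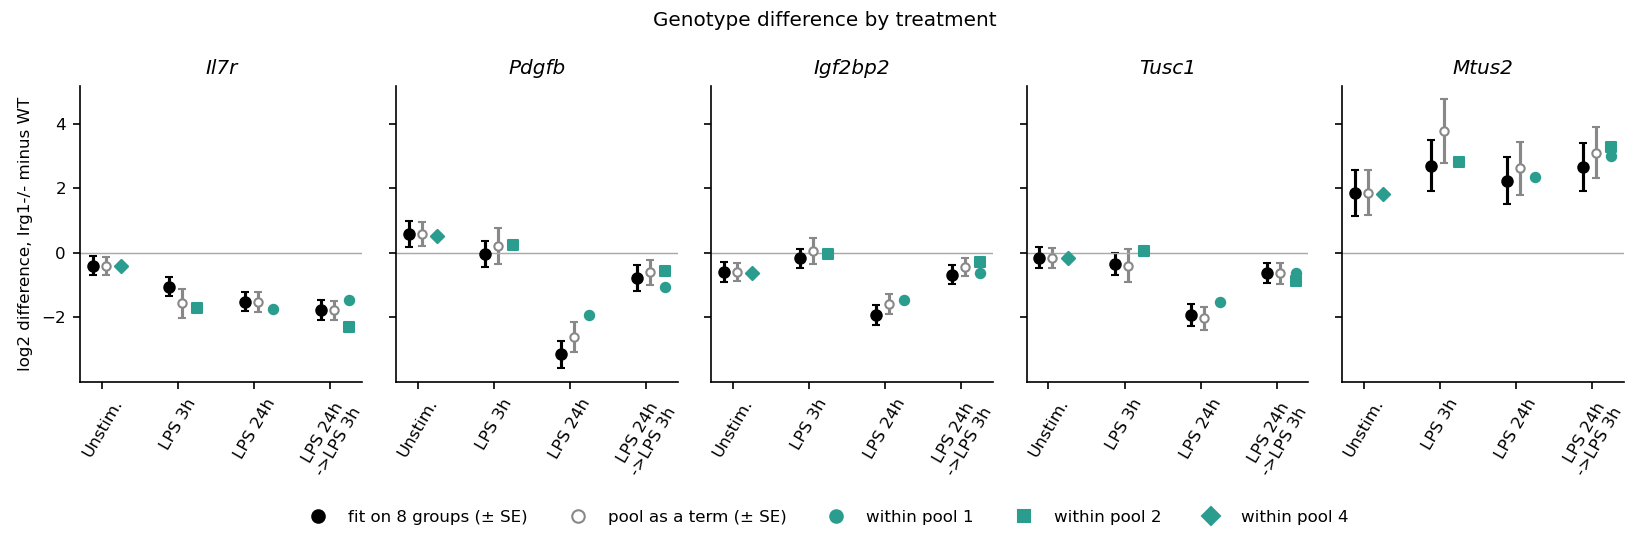
Log2 difference between Irg1-/- and WT BMDMs (vertical axis) for each gene and treatment, from the fit on 8 groups (black, ± SE), with pool as a term (open grey, ± SE) and between libraries of 1 pool (green, no error). Each green value under LPS rests on 1 WT library. The differences under LPS chose the genes; Pdgfb, Igf2bp2 and Tusc1 lie near 0 after LPS 3h (-0.04, -0.17 and -0.35) and far below it after LPS 24h (-3.15, -1.94 and -1.92).

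The rule of the choice names no test or threshold. The selection is set here against an adjusted p under 0.05 by edgeR's quasi-likelihood test with and without pool as a term. In at least 1 of 4 contrasts, the 3 LPS treatments and their mean, 16 genes passed both fits, and 5 of them are the genes described here. After LPS 24h 4 of the 5 passed, where 0.598% of the 11878 genes tested passed without the pool term and 0.101% with it. After LPS 24h->LPS 3h Il7r alone of the 5 passed, where 0.118% and 0.0505% of all genes passed. After LPS 3h none of the 5 did, where 0.00842% and 0.0253% of all genes passed, and 2 of the 5, Il7r and Mtus2, had an unadjusted p under 0.05 there, beside 5.84% of all genes. DESeq2 called 0 of the 5 after LPS 3h, 4 after LPS 24h, 2 after LPS 24h->LPS 3h (Il7r and Mtus2) and all 5 for the mean. These calls use the same libraries and contrasts that chose the genes and are no further support. The share of all genes that DESeq2 called is not given here. For the mean of the 3 treatments all 5 passed without the pool term (0.337% of all genes) and Il7r and Mtus2 with it (0.0589%). By edgeR's test with the pool term, Il7r was the last of 12 genes inside the threshold after LPS 24h (adjusted p = 0.0388), and Mtus2 the last of 7 for the mean (0.00795). Il7r was number 4 of 6 after LPS 24h->LPS 3h (0.00838). Just outside lay Ccl4 after LPS 24h (0.0550), Oasl1 for the mean (0.0752) and S100a10 after LPS 24h->LPS 3h (0.0523). Because these contrasts chose the genes, nothing further is read from their counts.

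The unstimulated libraries were not used in the choice and test whether the genes already differed without LPS. With edgeR's quasi-likelihood test and Benjamini-Hochberg adjustment over all genes, 0 of the 5 passed there, and 0.0421% of all genes did. The count was also 0 with DESeq2, and at an unadjusted p under 0.05 it was 1, Mtus2, beside 5.20% of all genes. The log2 difference in Mtus2 was 1.86 ± 0.72 (adjusted p = 0.690, and between 0.346 and 1 under the other settings tried, single libraries left out included), with all 3 Irg1-/- libraries above all 3 WT libraries. For Igf2bp2 it was -0.59 ± 0.30 (adjusted p = 0.976) and for Il7r -0.40 ± 0.29 (adjusted p = 1), with all 3 Irg1-/- libraries below all 3 WT libraries in both genes. An exact two-sided permutation test over the 6 libraries gave p = 0.1 for each of these 3 genes, the smallest value that 3 against 3 allows. The share of all genes separated in this way is not given here, so the separation is a description and not a result. Pdgfb (0.58 ± 0.39) and Tusc1 (-0.15 ± 0.32) overlapped between the genotypes, with an exact permutation p of 0.2 and 0.8. Since all 6 libraries came from pool 4, these values do not mix pools.

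The response to LPS, taken as the mean of both genotypes, was tested for each gene. Its contrast is orthogonal to the genotype difference in the fit on 8 groups. This need not hold with pool as a term, since pool and group overlap only in part. The LPS libraries are those that chose the genes, and a change in 1 genotype alone moves both contrasts. The calls here and for restimulation are therefore not independent of the choice. At LPS 3h against Unstim., 4 of the 5 genes passed the test, beside 49.1% of all genes. Il7r fell by 1.40 ± 0.21 on the log2 scale (adjusted p = 1.37e-06) and Tusc1 fell by 2.18 ± 0.24 (5.99e-09). Pdgfb rose by 1.44 ± 0.28 (8.50e-05) and Igf2bp2 by 1.16 ± 0.21 (3.69e-05). For Mtus2 the value was -0.65 ± 0.53 (adjusted p = 0.322). Both genotypes moved the same way in each of the 4 genes: Il7r by -1.08 in WT and -1.73 in Irg1-/- cells, Tusc1 by -2.08 and -2.28, Pdgfb by 1.76 and 1.13, and Igf2bp2 by 0.95 and 1.37.

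At LPS 24h against Unstim., 4 of the 5 passed, beside 25.4% of all genes, but only Il7r and Igf2bp2 had that call also with pool as a term. Il7r fell by 1.68 ± 0.21 (adjusted p = 1.44e-07) and Igf2bp2 rose by 1.10 ± 0.21 (0.000169). Pdgfb gave -1.38 ± 0.28 (adjusted p = 0.000374) and Tusc1 -0.73 ± 0.23 (0.0163), and with pool as a term these were -0.86 ± 0.38 (0.125) and -0.66 ± 0.32 (0.156). Without WT LPS 24h replicate 3 the mean for Pdgfb was -1.96. The values of the genotypes behind this mean were unlike. Pdgfb stood at 0.49 ± 0.39 in WT cells with the library of replicate 3 (1.54 between the libraries of pool 4) and at -0.67 ± 0.32 without it, so its direction in WT cells turns with that library, and it stood at -3.24 ± 0.43 in Irg1-/- cells. Tusc1 stood at 0.16 ± 0.32 in WT (-0.18 ± 0.34 without that library) and at -1.62 ± 0.33 in Irg1-/- cells. Igf2bp2 stood at 1.77 ± 0.31 in WT (1.31 ± 0.30 without it) and at 0.42 ± 0.30 in Irg1-/- cells, and Il7r at -1.12 ± 0.29 and -2.24 ± 0.30. The Tusc1 call was also lost without replicate 1 of the unstimulated Irg1-/- libraries (adjusted p = 0.0572) or without replicate 1 of the unstimulated WT libraries (0.0513).

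Restimulation was compared with the 24 h culture it followed and with a first exposure of the same length. At LPS 24h->LPS 3h against LPS 24h, 3 of the 5 genes rose, beside 5.15% of all genes that passed the test and were higher upon restimulation. Pdgfb rose by 1.70 ± 0.29 (adjusted p = 8.98e-05), Tusc1 by 1.32 ± 0.23 (0.000118) and Il7r by 1.10 ± 0.21 (0.000356). Without WT LPS 24h replicate 3 the mean rise of Pdgfb was 2.30. Igf2bp2 gave 0.38 ± 0.21 (0.313) and Mtus2 -0.32 ± 0.50 (0.802). The Tusc1 rise was 0.67 ± 0.32 in WT (1.01 ± 0.35 without WT LPS 24h replicate 3) and 1.97 ± 0.33 in Irg1-/- cells. For Il7r the rise was 1.23 ± 0.29 in WT and 0.97 ± 0.29 in Irg1-/- cells. In WT cells the Pdgfb value was 0.52 ± 0.39 (1.67 ± 0.33 without the LPS 24h library of replicate 3). Set 1 library against 1, it was 1.76 within pool 1, 1.69 within pool 2 and -0.77 within pool 4, which holds replicate 3. In Irg1-/- cells the Pdgfb value was 2.88 ± 0.42.

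At LPS 24h->LPS 3h against LPS 3h, 3 of the 5 passed, beside 43.2% of all genes. Tusc1, which had fallen after a first exposure, was 2.77 ± 0.25 higher after the second (adjusted p = 1.65e-10) and Il7r 0.83 ± 0.21 higher (0.00164). Pdgfb was lower, by -1.12 ± 0.28 (0.00172). Igf2bp2 (0.31 ± 0.21, 0.230) and Mtus2 (0.57 ± 0.54, 0.401) did not pass. The Tusc1 value was close in both genotypes, at 2.91 ± 0.35 in WT and 2.64 ± 0.35 in Irg1-/- cells, while that of Il7r was 1.19 ± 0.29 in WT and 0.47 ± 0.29 in Irg1-/- cells. The differences between genotypes in these responses involve the contrasts that chose the genes and were not tested. The 4 response comparisons share groups with each other.

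**Figure D3:**
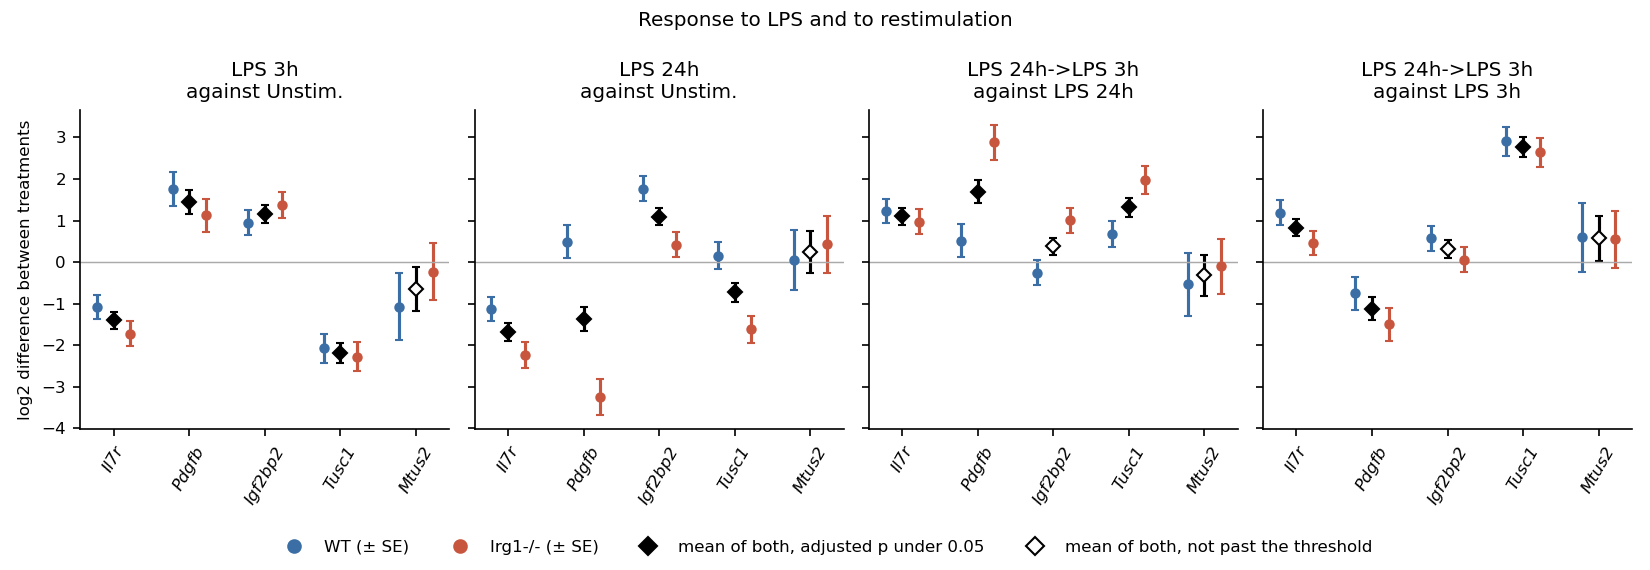
Log2 difference between treatments (vertical axis) for the 5 genes in WT (blue) and Irg1-/- (red) BMDMs and for the mean of both (diamonds, filled where the adjusted p is under 0.05), each ± SE. At LPS 24h against Unstim. Pdgfb is at 0.49 in WT (-0.67 without WT LPS 24h replicate 3) and -3.24 in Irg1-/- cells, whereas Tusc1 at LPS 24h->LPS 3h against LPS 3h is at 2.91 and 2.64.

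The genes also differ in where they stand across all 8 groups. By group means, Il7r ran from 604 CPM (WT, LPS 24h->LPS 3h) and 558 CPM (WT, Unstim.), whose libraries overlapped, to 89.8 CPM (Irg1-/-, LPS 24h). Pdgfb ran from 174 CPM (WT, LPS 3h) to 8.17 CPM (Irg1-/-, LPS 24h), and the latter group lay below all others without overlap. Igf2bp2 ran from 173 CPM (WT, LPS 24h) and 145 CPM (WT, LPS 24h->LPS 3h), which overlapped and whose order turns without WT LPS 24h replicate 3 (131 CPM), to 33.5 CPM (Irg1-/-, Unstim.), with the lowest groups, WT Unstim. at 50.7 CPM and Irg1-/- LPS 24h at 45.0 CPM among them, each overlapping its neighbour. Tusc1 ran from 62.7 CPM (WT, LPS 24h->LPS 3h), above all others without overlap, to 6.56 CPM (Irg1-/-, LPS 3h). For Mtus2 the 4 Irg1-/- groups, from 7.47 to 4.69 CPM, stood above the 4 WT groups, from 1.59 to 0.741 CPM, and every group overlapped the next in order.

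For each gene the 3 other tested genes with the most similar log2 CPM over the 24 libraries were found, as a description, since the libraries share groups and pools. Pdgfb had the closest matches, Prkcd (protein kinase C delta, Pearson r = 0.942), Palld (an actin-binding protein, 0.900) and G3bp1 (a stress granule protein, 0.884), and all 3 had their lowest group mean in Irg1-/- LPS 24h and their highest in WT LPS 3h, as Pdgfb did. The Irg1-/- minus WT log2 difference at LPS 24h was -1.15 ± 0.26 for Prkcd, -0.92 ± 0.27 for Palld and -0.79 ± 0.29 for G3bp1. Igf2bp2 was matched by Clic5 (0.863), Hat1 (a histone acetyltransferase, 0.853) and Hsp90aa1 (a heat shock protein, 0.841). Tusc1 was matched by Snx16 (a sorting nexin, 0.863), Slc8b1 (a mitochondrial sodium-calcium exchanger, 0.836) and 2310022A10Rik (0.836). The matches were looser for Il7r, namely C77080 (0.753), Plin2 (a lipid droplet coat protein, 0.733) and Slc38a2 (an amino acid transporter, 0.704), and for Mtus2, namely Tbc1d5 (0.675), F13a1 (coagulation factor XIII A chain, 0.669) and Zfp932 (0.658).

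Other genes of the pathways and families were read from 4 lists that leave out the 5 genes. In none of the 5 genotype comparisons (the 4 treatments and the mean under LPS) did any of the 14 IL-7 receptor genes, 13 PDGF and growth factor genes, 14 IGF2BP and m6A genes or 10 tumour suppressor candidate and microtubule genes tested pass edgeR's quasi-likelihood test. With DESeq2 the count was 1 at LPS 24h (Plau, the urokinase protease) and 3 at LPS 24h->LPS 3h (Hbegf, Igf1 and Pdgfc, all growth factors), all in the PDGF list, and 0 in the other 3 comparisons. These genes were named after their values were seen. The share of all genes that DESeq2 called is not given here, so nothing is read from these counts. At LPS 24h 2, 1, 2 and 3 genes of these lists had an unadjusted p under 0.05, beside 10.1% of all genes, and the list medians were -0.30, -0.11, -0.21 and -0.17 on the log2 scale beside -0.01 over all genes. Il2rg, the common gamma chain that pairs with the Il7r product, differed by -0.51 ± 0.35 at LPS 24h (adjusted p = 0.701), from 83.6 ± 45.4 CPM (SD, n = 3) in WT to 58.5 ± 9.64 CPM in Irg1-/- cells. Pdgfa, the other chain of the PDGF dimers, differed by -0.31 ± 0.29 (0.829), Igf2bp1 by -0.54 ± 0.61 (0.873) and Igf2bp3 by -0.40 ± 0.53 (0.889), both paralogues of Igf2bp2, and Mtus1, the paralogue of Mtus2, by 0.45 ± 0.41 (0.815).

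The responses to LPS of the same lists were also read. At LPS 3h against Unstim., where 49.1% of all genes passed in either direction, 9 of the 14 IL-7 receptor genes rose and 1 fell, 6 of the 13 PDGF genes rose and 3 fell, 9 of the 14 IGF2BP and m6A genes rose and 1 fell, and 3 of the 10 tumour suppressor candidate and microtubule genes rose and 2 fell. The list medians were 1.14, 0.76, 0.73 and 0.32, beside -0.20 over all genes. At LPS 24h against Unstim., where 25.4% of all genes passed, no PDGF gene rose and 7 of 13 fell, with a median of -1.14 beside 0.01 over all genes, while 4 of the 14 IL-7 receptor genes rose and 1 fell. Among the partners, Il2rg rose by 1.50 ± 0.26 at LPS 3h (adjusted p = 1.19e-05), where Il7r fell. Pdgfa rose by 1.69 ± 0.21 at LPS 3h (6.18e-08), as Pdgfb did, and Mtus1 by 2.49 ± 0.30 (3.20e-08). Igf2bp1 was at 5 counts or fewer in each unstimulated library and at 27 to 84 counts in each LPS 3h library (adjusted p = 2.51e-10), and Igf2bp3 rose by 1.27 ± 0.37 (0.00568).

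**Figure D4:**
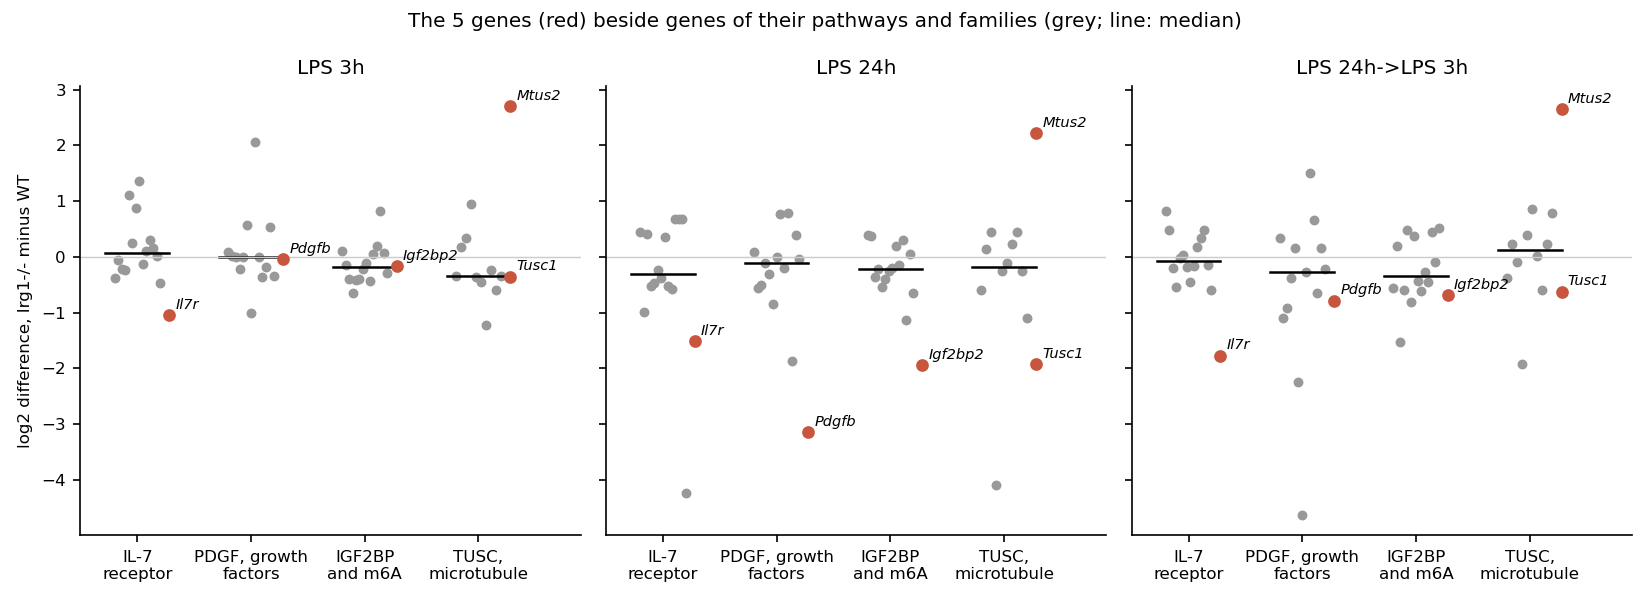
Log2 difference between Irg1-/- and WT BMDMs (vertical axis) in the 3 LPS treatments for each tested gene of 4 lists (grey points, line at the list median) and for the 5 chosen genes (red). At LPS 24h the list medians lie between -0.30 and -0.11, while the 5 genes, chosen on these differences, lie at -1.51, -3.15, -1.94, -1.92 and 2.23; a grey point far from 0 did not pass the test.

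The nearest measured genes on either side were also read. Around Il7r these are Capsl (no count in any library) and Spef2, around Pdgfb Cbx7 and Rpl3, around Igf2bp2 Senp2 and Tra2b, around Tusc1 Gm12666 (no count in any library) and Caap1, and around Mtus2 Slc46a3 and Slc7a1. The gaps run from 9739 bases (Senp2) to 1164569 bases (Caap1). None of the 8 genes with counts passed edgeR's test or DESeq2 in any of the 5 genotype comparisons, and between 1 and 2 of the 8 had an unadjusted p under 0.05 by edgeR's test in each, beside 5.20% to 10.1% of all genes. At LPS 24h 2 of the 8 had an unadjusted p under 0.05, namely Caap1 with a log2 difference of -1.04 ± 0.45 (adjusted p = 0.409) and Slc7a1 with -0.75 ± 0.34 (0.436).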

How the data were processed

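The series holds 3′-end RNA-seq (poly(A) tags primed with barcoded oligo-dT, no molecular identifiers) of 24 BMDM libraries. The authors deposited a table of raw read counts per Ensembl gene, not normalized, with mm10 and STAR named in the submitters' processing notes. The counting tool and strand setting are not given in the sources used here. The 5 summary lines that name no gene (40.6% to 52.0% of reads) were left out. Groups, replicate numbers and library pools came from the labels, with the pool read from the prefix of the library name (no source used here says that the prefix is a pool), and symbols from GENCODE M21 (21745 of 22165 genes named). No deposited per-sample column was left unused (0).

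Counts were normalized by TMM and filtered with filterByExpr (11878 genes left), and edgeR 4.0.16 (R 4.3.3) quasi-likelihood tests were fitted on 8 groups and 24 libraries, with Benjamini-Hochberg adjustment over all genes and a threshold of 0.05. CPM are counts per 1000000 of TMM-scaled library size, and correlations used log2 CPM with a prior count of 2. The code was tested on simulated data. Alternatives were DESeq2 1.42.0, its size factors in edgeR, other filters, fits on the compared groups alone, TMM without the 20 most counted genes, pool or replicate number as terms, and each library left out. The WT responses without WT LPS 24h replicate 3 were added after seeing the data.

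The genes, lists and tests were chosen with earlier results of these data known. Named genes were the 5 genes, Acod1, list genes past the threshold in a genotype comparison (0 found), the partners Il2rg, Pdgfa, Igf2bp1, Igf2bp3 and Mtus1, the nearest gene on each side and the 3 most similar genes of each. Ccl4, S100a10 and Oasl1 were named for their place at the threshold. Plau, Hbegf, Igf1 and Pdgfc were chosen after their values were seen.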

Additional observations from a re-analysis of the deposited data

How the results depend on the processing

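Of 993 values recomputed under the alternatives, 965 did not change direction, side of the threshold or size beyond the spread. The count of genes past the threshold at LPS 24h against Unstim. was 4, and it was 2 with pool as a term and 2 with pool as a term and a replicate block, where Pdgfb gave -0.51 (adjusted p = 0.519) and Tusc1 -0.40 (0.558). It was between 3 and 4 with single libraries left out. The cause was not tested. The direction of Mtus2, which passed no test, turned in 4 settings with pool as a term: at LPS 3h against Unstim. it was 0.73 with the term and 0.55 with the term and the block, and at LPS 24h->LPS 3h against LPS 3h it was -0.091 and -0.048. Without single libraries Mtus2 ranged from -0.36 to 0.50 at LPS 24h against Unstim. and from -0.68 to 0.30 at LPS 24h->LPS 3h against LPS 24h, with the sign turned only without WT LPS 24h replicate 3.

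Replicate numbers are shared by the groups, but same-numbered libraries deviated together only weakly (correlations from -0.10 to 0.34, over 0.1 for every pair in no comparison), so the numbers were not taken as pairs. With the replicate number as a replicate block alone the counts were 0 for the genotypes unstimulated, 4 and 4 for the responses at 3 h and 24 h and 3 and 3 for restimulation, as without it.

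With 3 libraries a group, a genotype difference in unstimulated cells as small as that of Igf2bp2 or Il7r was not past the threshold. Mtus2, with 0 to 40 counts in each WT library, is the least precise of the 5.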
